A study of Homo sapiens with 2 samples.

Results

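The regions described here are the SOX9 peaks on chromosome 19 in VCaP, an established prostate cancer cell line with the TMPRSS2-ERG fusion and high basal SOX9. They were taken from the peak list by chromosome alone, which gave 534 of the 7547 peaks of the list (7.08%). The list comes from 1 library of chromatin immunoprecipitated with a SOX9 antibody and was set beside 1 library of VCaP input chromatin made without antibody. The cells were grown in serum-containing medium without a further treatment named in the labels. Both lists give positions in hg18, and positions below are 1-based.

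SOX9 is a transcription factor of the SOX family, which binds DNA through an HMG box and bends it, and it can act at promoters and at distal enhancers. Chromosome 19 is known for its high gene density, for clusters of genes encoding KRAB zinc finger proteins, and for the kallikrein genes of its long arm, among them KLK3, which encodes prostate-specific antigen and is a classic target of the androgen receptor in prostate cells. No hg18 sequence or gene annotation was used, so peaks are identified by position and their sequences are not shown.

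Each group holds 1 library, so the spread between replicates is unknown and no test between groups was made. The 95% intervals given below cover only the error of counting peaks, as if peaks were independent of each other, and read depth is unknown for both libraries. The name of each SOX9 peak carries the replicate number 2. Each peak has a score assigned by the authors, on a scale that no source used here states, so scores were used only within the SOX9 list. Peaks scoring 40 or more are called strong below.

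Strong SOX9 peaks took up a larger share of the peaks on chromosome 19 than elsewhere. Of its 534 peaks, 112 were strong (20.97%, exact Clopper-Pearson interval 17.6 to 24.7%), against 13.0% of the whole list. On the other nuclear chromosomes 871 of 7005 peaks were strong (12.4%, 11.7 to 13.2%), a difference of 8.54 percentage points (Newcombe interval 5.20 to 12.3). Chromosome 17, the next in gene density, had 77 strong peaks among 517 (14.9%, 11.9 to 18.3%), which was 6.08 points below chromosome 19 (interval of the difference 1.44 to 10.7). Of all 24 nuclear chromosomes chromosome 19 had the highest strong share. Its interval lay above those of 13 of the other 23 and overlapped the remaining 10, several of which hold few peaks. Chromosome 14 came next, with 15.4% (10.8 to 21.0%).

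These strong peaks were narrow. Among the 112 strong peaks of chromosome 19, 15 were at least 1000 bp wide (13.4%, 7.69 to 21.1%), compared with 373 of 871 on the other nuclear chromosomes (42.8%, 39.5 to 46.2%). The difference was -29.4 percentage points (Newcombe interval -35.5 to -21.2). Against the 24 of 77 on chromosome 17 (31.2%, 21.1 to 42.7%) it was -17.8 points (-29.9 to -5.85). The strong peaks of chromosome 19 had a median width of 576.5 bp (interval of the median 518 to 609) and those of the other chromosomes 868 bp (788 to 928). On chromosome 17 the median was 662 bp, with an overlapping interval (579 to 933). Single chromosomes ran from 548.5 bp on X, which had 6 strong peaks, to 1259 bp on 15. Chromosomes 22 (620 bp) and 12 (622.5 bp) were near chromosome 19. No chromosome with a strong peak had a lower share of wide ones. Of the 19 other chromosomes with at least 20 strong peaks, shares ranged from 25 to 60% and 14 had intervals wholly above that of chromosome 19. Strong scores themselves were similar, with a median of 78.6 among strong peaks on chromosome 19 and 71.0 on the others.

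Split by width, the strong peaks of chromosome 19 therefore differed from the rest of the list in opposite directions. Chromosome 19 held 97 of the 595 strong peaks under 1000 bp in the list (16.3%, 13.4 to 19.5%) but 15 of the 388 strong peaks of 1000 bp or more (3.87%, 2.18 to 6.30%). Peaks under 40 lay between these, with 422 of 6564 on chromosome 19 (6.43%, 5.85 to 7.05%). The comparison by width was chosen after the values had been seen.

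The gene density of the chromosome was checked from the chromosome that RefSeq assigns to each protein-coding gene in GRCh38.p14, without use of gene positions. Chromosome 19 was assigned 1451 such genes, or 22.8 per Mb of the hg18 length used here, the highest of the 24 chromosomes, followed by chromosome 17 with 14.9. Counted per gene, chromosome 19 had 36.8 SOX9 peaks per 100 genes (exact Poisson interval 33.7 to 40.1), against 37.7 (36.8 to 38.6) on the other chromosomes together. The ratio was 0.976 (exact conditional interval 0.893 to 1.07). Strong peaks gave another picture, with 7.72 per 100 genes (6.36 to 9.29) against 4.69 (4.38 to 5.01), a ratio of 1.65 (1.34 to 2.01). For strong peaks under 1000 bp the ratio was 2.49 (1.99 to 3.11), and for strong peaks of 1000 bp or more it was 0.515 (0.285 to 0.861). Per gene, chromosome 19 ranked 16 of 24 for all peaks and 1 for strong peaks. Chromosomes 20, 9 and 17 came next for strong peaks, with intervals that overlapped its own. They had 7.08 (5.01 to 9.71), 6.81 (5.10 to 8.91) and 6.59 (5.20 to 8.23) per 100 genes. The intervals of chromosomes 15 (6.48, 4.63 to 8.83), 21, 10, 13, 7, 14, 18, 22, 11 and 5 also overlapped that of chromosome 19. Some others were far lower, such as 16 with 2.34 (1.43 to 3.62) and X with 0.708 (0.260 to 1.54). The copy number of chromosome 19 in VCaP was not measured, and its part in peak numbers and scores was not tested.

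**Figure D1:**
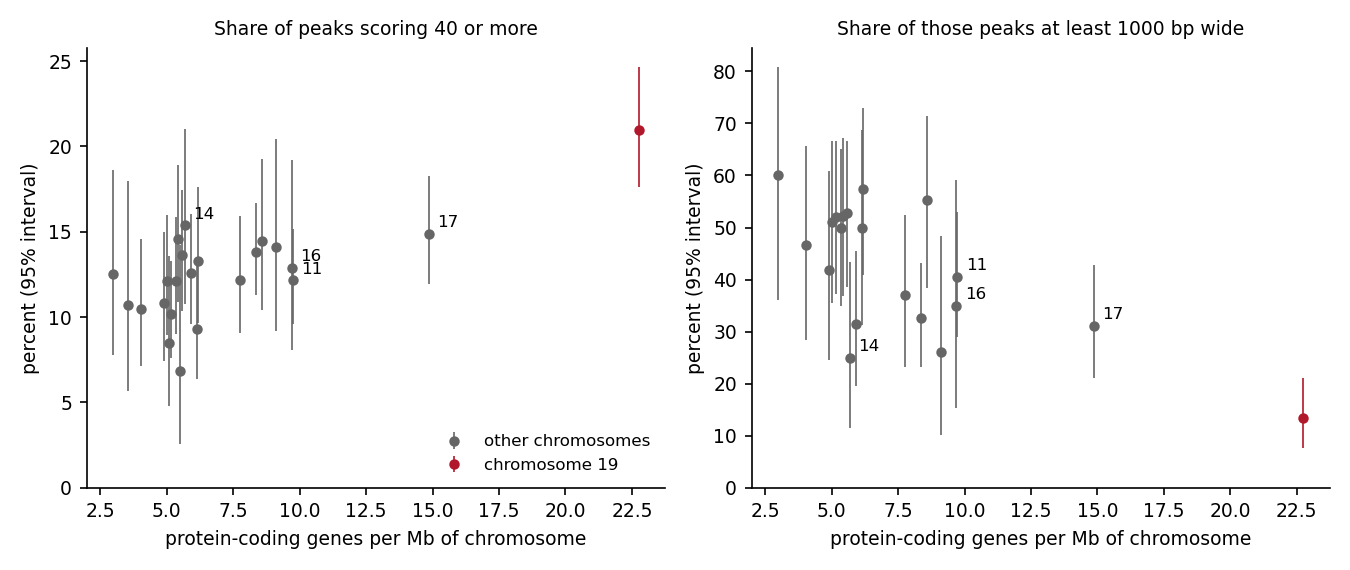
Strong SOX9 peaks by chromosome against protein-coding genes per Mb (GRCh38.p14 gene counts over hg18 length). Points are chromosomes and bars exact 95% intervals, with chromosome 19 in red, Y left out at the left, and only chromosomes with at least 20 strong peaks at the right. Chromosome 19 lies highest at the left (20.97% of peaks scoring 40 or more) and lowest at the right (13.4% of those at least 1000 bp wide).

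Across chromosomes, the strong share and the width of strong peaks varied with gene density. Spearman's rho between genes per Mb and the strong share was 0.64 over 24 chromosomes and 0.60 over the 23 without chromosome 19. The rho between genes per Mb and the share of strong peaks at least 1000 bp wide was -0.54 over the 23 chromosomes with strong peaks and -0.47 without chromosome 19. Chromosomes are points of 1 library here, share its depth and differ in base composition, so these values are descriptions.

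Chromosome 19 made up more of the list in the score bands from 20 upward than in those below. Its share was 6.67% (5.66 to 7.81%) among peaks scoring under 5, 5.88% (4.92 to 6.96%) from 5 to 10 and 5.78% (4.63 to 7.13%) from 10 to 20. It was 8.25% (6.50 to 10.3%) from 20 to 40, 10.5% (8.11 to 13.4%) from 40 to 80 and 12.0% (8.65 to 16.1%) from 80 to 160. At 160 or more it held 16 of 117 peaks (13.7%, 8.02 to 21.3%). In the 100 highest-scoring peaks of the list 14 were on chromosome 19 (interval 7.87 to 22.4%), against its 7.08% of the whole list. The interval of the band from 20 to 40 included that 7.08%.

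Within both sets of chromosomes most higher score bands held wider peaks, but in the middle bands the peaks of chromosome 19 had lower median widths than the others. Among peaks under 5, the median width was 279.5 bp on chromosome 19 and 287 bp elsewhere, with overlapping intervals (267 to 304 and 283 to 292). From a score of 10 to 20 the medians were 403.5 bp (353 to 462) and 552 bp (533 to 574). From 40 to 80 they were 533.5 bp (462 to 650) and 861.5 bp (737 to 928), and from 80 to 160 they were 550.5 bp (502 to 673) and 926 bp (788 to 1094). Among peaks of 160 or more the intervals overlapped again, with medians of 635 bp (589 to 874) and 758 bp (684 to 1050). Median widths from 10 to 160 were thus lower on chromosome 19, while the intervals of the medians overlapped among the weakest and the strongest. The share of wide peaks still differed among the strongest. At 160 or more, 1 of 16 peaks on chromosome 19 was at least 1000 bp wide (6.25%), against 43 of 101 elsewhere (42.6%).

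**Figure D2:**
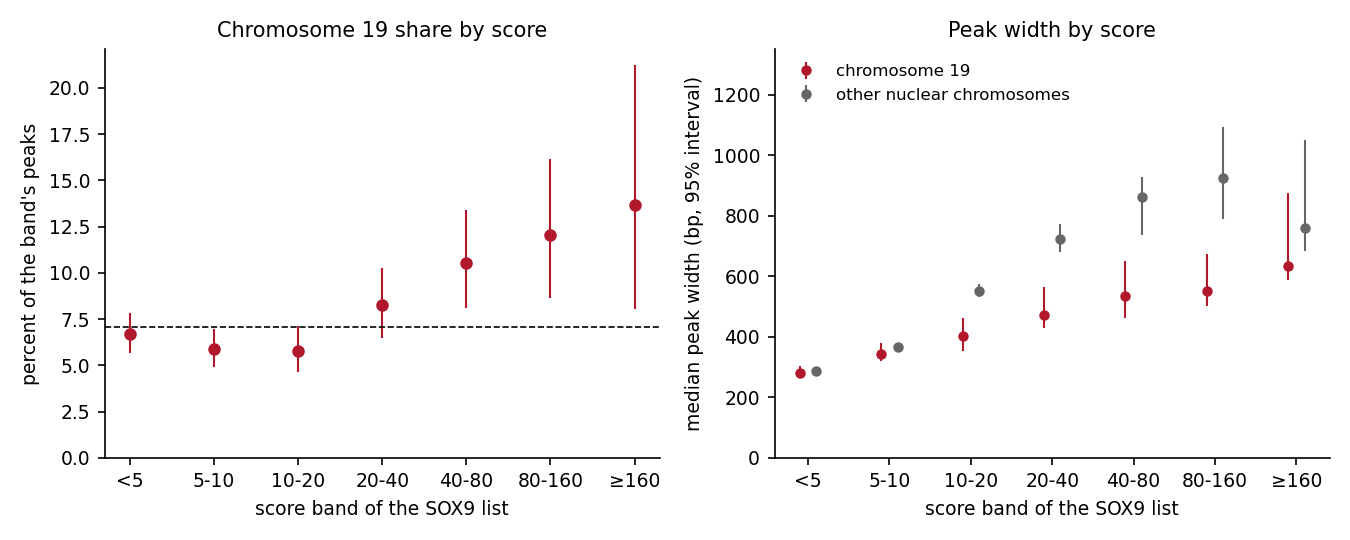
SOX9 peaks by score band, with 95% intervals. The left panel gives the percent of each band's peaks that lie on chromosome 19, with the share over the whole list (7.08%) as a dashed line, which is 6.67% under 5, 5.78% from 10 to 20 and 13.7% at 160 or more. The right panel gives the median width in bp on chromosome 19 (red) and on the other nuclear chromosomes (grey), whose intervals do not overlap between scores of 10 and 160.

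Over all scores, the 534 peaks covered 265 kb. Their scores ran from 1.63 to 355, with a median of 9.84 (quartiles 4.92 and 31.3), compared with 7.94 (4.92 and 18.7) on the other nuclear chromosomes. The lower quartiles were the same, and the difference lay in the upper part of the distribution. The median width was 399 bp (interval 379 to 420), against 414 bp (407 to 421) on the other nuclear chromosomes. At least 1000 bp were spanned by 35 peaks (6.55%, 4.61 to 8.998%), where the whole list had 10.7%. The smallest width in the list, 243 bp, was found for 53 peaks (9.93%, 7.52 to 12.8%), against 7.91% of the whole list, which lies within that interval. None of these 53 was strong. Score and width were correlated across the peaks of chromosome 19 (Spearman's rho = 0.65) and of the other nuclear chromosomes (0.67), as a description of peaks from 1 library.

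**Figure D3:**
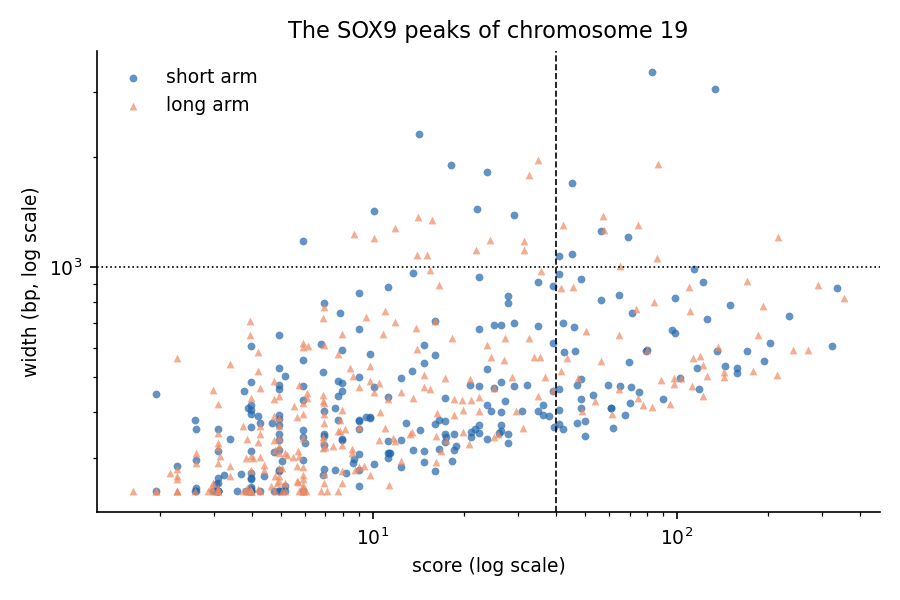
Width in bp against score for each of the 534 SOX9 peaks of chromosome 19, both on log scales, with short-arm peaks as blue circles and long-arm peaks as orange triangles. The dashed line marks a score of 40 and the dotted line a width of 1000 bp, and 15 peaks lie above both.

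The strongest peaks were spread over both arms. The top peak, at 54961375 to 54962198 on the long arm (824 bp), scored 355 and ranked 9 in the whole list. The second was on the short arm at 6375737 to 6376610 (874 bp, score 336). Also on the short arm, a peak ranking 3 on the chromosome lay at 14089421 to 14090029 (609 bp, score 325). These were the only peaks of the chromosome with scores above 300. Next came a pair on the long arm, at 44032210 to 44033098 (889 bp, score 290) and at 45975604 to 45976194 (591 bp, score 270). The peak at 40884949 to 40885540 had a score of 241 over 592 bp. A short-arm peak at 19035229 to 19035961 (733 bp) reached 234. Of the 10 highest-scoring peaks, 9 were under 1000 bp wide. The exception was the peak at 47464180 to 47465388, with 1209 bp and a score of 216. The last of the 10 were at 45623407 to 45623913 (507 bp, score 214) and at 13977977 to 13978594 (618 bp, score 202). The long arm held 6 of the 10 and the short arm 4.

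The widest peaks lay elsewhere and all 3 were on the short arm. Within the window from 1 to 2 Mb a peak of 3416 bp at 1417504 to 1420919 scored 82.9, and another of 3068 bp at 1704140 to 1707207 scored 133. The third, 2302 bp at 18577350 to 18579651, scored 14.2 and was not strong. The widest peak of the long arm spanned 1959 bp. At the threshold, the lowest strong score, 40.8, was shared by 4 short-arm peaks (1416098 to 1417051, 10392069 to 10393137, 13805392 to 13805763 and 13923886 to 13924347), and the 2 just outside had 39.3 (19110162 to 19110526) and 39.2 (15480139 to 15480755).

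The arms were divided at the longest stretch without a SOX9 peak, from 24061958 to 34707657. It spanned 10.6 Mb, 8.21 times the next longest such stretch on the chromosome (1.297 Mb), and lies in the middle of the chromosome, where the centromere is. The short arm then held 258 peaks over 24.1 Mb, or 10.7 per Mb (exact Poisson interval 9.45 to 12.1). The long arm held 276 peaks over 29.1 Mb, or 9.49 per Mb (8.41 to 10.7). The ratio of long to short arm was 0.886 (exact conditional interval 0.745 to 1.05), so that a difference in density was not detectable. It was 0.717 (0.568 to 0.903) for peaks at or above the list median of 7.94. Without the fullest window, from 1 to 2 Mb, it was 0.995 (0.831 to 1.19). Over the whole chromosome the density was 8.37 per Mb (7.68 to 9.11), and 10.1 per Mb (9.22 to 10.9) without the peak-free stretch.

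Scores were distributed differently on the 2 arms. The median score was 13.2 (interval 9.77 to 17.3) on the short arm and 7.94 (6.90 to 10.1) on the long arm. The share of peaks scoring 20 or more was 40.3% (34.3 to 46.6%) on the short arm and 28.6% (23.4 to 34.3%) on the long arm, a difference of -11.7 points for long minus short (Newcombe interval -19.6 to -3.63). At the threshold of 40 the shares were 23.6% (61 peaks) and 18.5% (51 peaks), and the interval of the difference of -5.17 points included 0 (-12.1 to 1.75). At 80 or more the sign turned, with 8.91% (23 peaks) on the short arm and 11.2% (31 peaks) on the long arm (2.32 points, -2.89 to 7.48). The long arm had more of its peaks in the band from 5 to 10, with 75 (27.2%, 22.0 to 32.8%) against 50 on the short arm (19.4%, 14.7 to 24.7%). The short arm had more in the band from 20 to 40, with 43 peaks (16.7%, 12.3 to 21.8%) against 28 (10.1%, 6.85 to 14.3%). It also had more in the band from 40 to 80, with 38 (14.7%, 10.6 to 19.7%) against 20 (7.25%, 4.48 to 10.97%). In each of these bands the intervals of the arms overlapped. Strong peaks were narrow on both arms, with median widths of 583 bp (492 to 661) and 570 bp (517 to 666).

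In windows of 1 Mb, peaks were found in 54 of 64 windows. Of the 10 empty windows, 9 lay wholly in the peak-free stretch and the other was the window from 22 to 23 Mb on the short arm. Filled windows held a median of 9 peaks (quartiles 5 and 13). Strong peaks occurred in 38 of the 54 filled windows.

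The window from 1 to 2 Mb, near the end of the short arm, was the fullest, with 38 peaks (exact Poisson interval 26.9 to 52.2). It also had the most strong peaks, 9, a share of 23.7%, near the 20.97% of the whole chromosome. The highest of them, at 1993003 to 1993532, scored 158. The median score of the window, 8.30, was below that of the chromosome. The first 3 windows together held 66 peaks, 12.4% of the chromosome's, of which 16 were strong (24.2%, 14.5 to 36.4%), an interval that includes 20.97%.

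The second fullest window was from 18 to 19 Mb, with 26 peaks (16.98 to 38.1). Most of these were weak, with a median score of 5.11, and 5 were strong (19.2%), led by a peak at 18164522 to 18165194 with a score of 96.3. Beyond it toward the centromere, 32 peaks lay from 19 to 25 Mb. They had a median score of 17.8, and 4 were strong (12.5%, 3.51 to 29.0%).

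On the long arm the window from 50 to 51 Mb held the most peaks, 22 (13.8 to 33.3), with 5 strong ones (22.7%), the highest at 50840510 to 50841009 with a score of 142. The windows from 45, 53 and 54 Mb followed with 18 peaks each. That from 45 to 46 Mb had 7 strong peaks (38.9%), the second highest number on the chromosome, and these included 2 of the 10 highest-scoring peaks, with scores of 270 and 214. In the window from 53 Mb the highest score was 88.9 (53663992 to 53664480), and the window from 54 Mb contained the top peak of the chromosome. From 40 to 48 Mb 24 of 94 peaks were strong (25.5%, 17.1 to 35.6%), an interval that includes the 20.97% of the chromosome. The windows just beyond, from 48 and 49 Mb, held 2 and 3 peaks, none of them strong.

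A difference in strong share between full and sparse windows was not detectable. In the 26 windows with 10 or more peaks, 84 of 396 were strong (21.2%, 17.3 to 25.6%), and in the 28 windows with 1 to 9 peaks, 28 of 138 (20.3%, 13.9 to 28.0%). The number of peaks in a window and their median score had a Spearman's rho of 0.10 over the 54 windows, while the rho between the number of peaks and the number of strong ones, which are part of it, was 0.79.

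**Figure D4:**
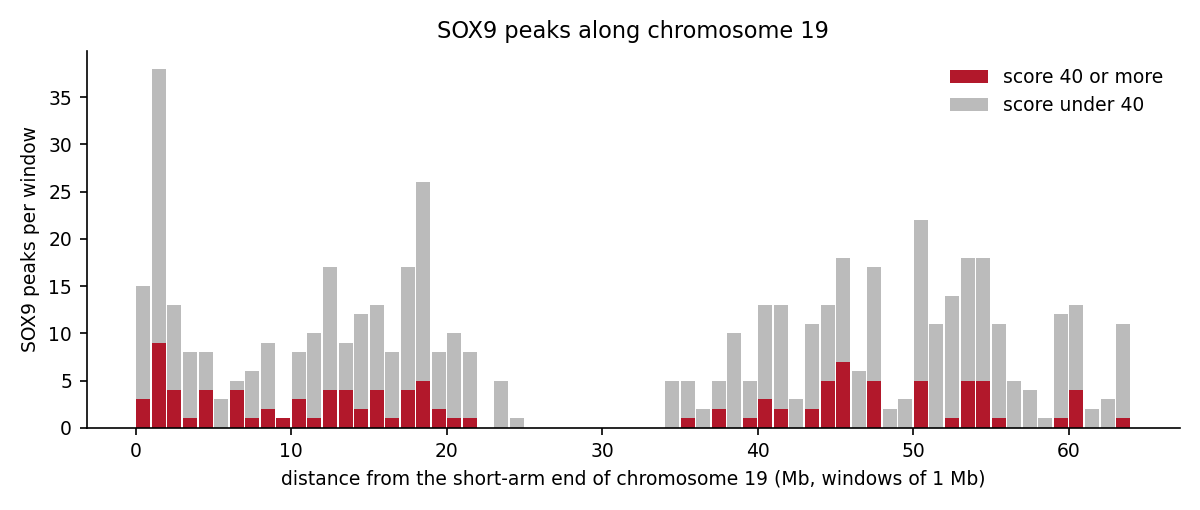
SOX9 peaks per 1 Mb window along chromosome 19, with strong peaks (score 40 or more) in red and the others in grey stacked above them. The fullest window, 1 to 2 Mb from the short-arm end, has 38 peaks of which 9 are strong, and the empty stretch in the middle divides the arms.

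The kallikrein genes lie near 56 Mb of the long arm in hg18, and the windows on either side of that position, from 55 to 57 Mb, held 16 SOX9 peaks (exact Poisson interval 9.15 to 26.0). Of these 11 lay in the window before 56 Mb and 5 in the window after it. They were mostly weak, with a median score of 5.41 and 14 of 16 below the list median of 7.94. Their median width was 285 bp, and 5 had the smallest width of 243 bp.

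A single peak from 55 to 57 Mb was strong (6.25%, 0.158 to 30.2%), and the 20.97% found for the whole chromosome falls inside this wide interval. It was at 55398236 to 55398887 (652 bp), scored 186, ranked 83 in the whole list and ended 601 kb before the 56 Mb position. The next highest scored 17.3 and was at 55760009 to 55760504. It was followed by a peak of 578 bp at 56212254 to 56212831, the highest of the 5 beyond 56 Mb, with a score of 7.71. The other 4 peaks beyond 56 Mb scored from 2.28 to 3.75, including one at 56259766 to 56260131.

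The 56 Mb position itself fell in a stretch of 321 kb without a SOX9 peak, from 55891254 to 56212253. Such a stretch was not unusual for the chromosome, where 43 of 533 gaps between neighbouring peaks (8.07%) were at least as long. Just before it lay a pair of peaks with the same score of 5.89, at 55889758 to 55890000 and 55890652 to 55891253. Beyond it scores stayed low, and none of the 10 peaks from 56 to 59 Mb was strong, which allows a share of up to 30% by counting alone. Which kallikrein gene each position corresponds to was not analysed here, and with unknown depth the absence of a called peak does not show an absence of binding. No input peak was called from 55 to 57 Mb.

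**Figure D5:**
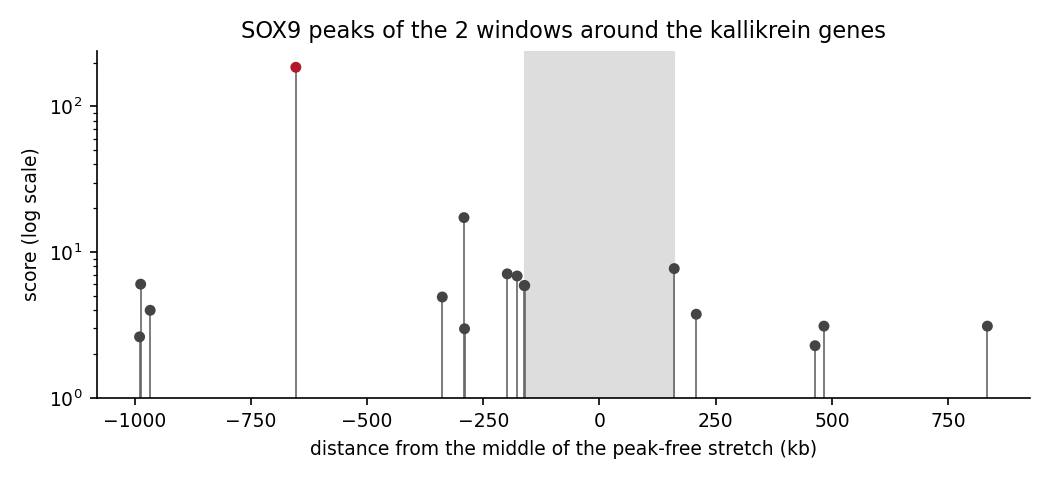
Score (log scale) of the 16 SOX9 peaks from 55 to 57 Mb against distance in kb from the middle of the 321 kb peak-free stretch (shaded) that contains the 56 Mb position. The 1 strong peak (red, score 186) lies on the short-arm side, and no peak beyond the stretch scores above 7.71.

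Neighbouring peaks were closer together on chromosome 19 than elsewhere, as its density implies, while gaps under 1 kb made up a smaller share. The median gap between neighbours was 43.7 kb (quartiles 14.97 and 103.7 kb), compared with 121.6 kb on the other nuclear chromosomes and 58.5 kb on chromosome 17. Gaps under 1 kb made up 48 of 533 (9.01%, 6.71 to 11.8%) on chromosome 19, 12.98% (12.2 to 13.8%) on the other nuclear chromosomes and 15.9% (12.8 to 19.3%) on chromosome 17. The shortest gap was 52 bp.

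A cluster was counted wherever at least 3 peaks followed each other at distances of up to 10 kb. Chromosome 19 had 19, which held 65 of its peaks (12.2%, 9.52 to 15.3%), a share close to that on the other nuclear chromosomes (12.3%, 11.5 to 13.1%). The cluster with the most peaks, 5, spanned 10.4 kb at 1698658 to 1709059, with scores from 4.74 to 133, and contained the second widest peak of the chromosome. There were 6 clusters of 4 peaks, of which the first by position were at 1200201 to 1212142, with scores up to 50.02, and at 1416098 to 1421733, which contained the widest peak. The 3 clusters named here all lay in the window from 1 to 2 Mb, but those of 4 peaks were named because they came first by position. The other clusters of 4 peaks lay outside that window, on both arms.

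Counted peak by peak, strong peaks were more frequent among peaks that stood alone. Of 357 peaks with no neighbour within 10 kb, 86 were strong (24.1%, 19.7 to 28.9%), compared with 26 of 177 peaks with a neighbour (14.7%, 9.83 to 20.8%). The difference was 9.40 points (Newcombe interval 2.14 to 15.9). On the other nuclear chromosomes these shares were 14.3% (13.3 to 15.3%) and 8.88% (7.77 to 10.1%), so both were higher on chromosome 19, although the intervals for peaks with a neighbour overlapped. The order did not hold by region. With peaks up to 10 kb apart joined and given their highest score, 25% of 432 regions on chromosome 19 were strong (20.98 to 29.4%). These regions include the 357 lone peaks, of which 24.1% were strong. The lower share of peaks with a neighbour thus does not extend to the regions they form.

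None of the 534 SOX9 peaks of chromosome 19 shared a base with an input peak, which allows a share of up to 0.562%, where 0.530% of the whole SOX9 list did. The input list had 11 peaks on chromosome 19 among 401. Of these, 6 lay in the long stretch without SOX9 peaks, 1 at 24318005 to 24318149 and a group of 5 between 32423744 and 32430550. How much of the rest of that stretch could hold called peaks was not tested. The SOX9 peak at 23976596 to 23976868 (score 8.15) had its centre within 1000 bp of that of an input peak, and a gap of 536 bp separated the edges of the peaks. Neither the strong peaks nor the fullest windows thus coincided with regions called in input. No source used here states if input served as the background in calling SOX9 peaks, which would by itself reduce such overlaps.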

How the data were processed

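SOX9 ChIP and input libraries of VCaP, 1 each, were read on a Genome Analyzer (per the labels' protocols). Build hg18 and CASAVA 1.8.2 are named in the submitters' processing notes, and no source used here gives the peak caller or its settings. The authors deposited 1 list per library without a header, and the deposited score of each peak has no stated scale.

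Starts were converted to 1-based positions. Windows and arms were assigned by peak centre. Lengths ran from the chromosome start to the last peak of either list. Overlap meant at least 1 shared bp. Protein-coding genes were counted per chromosome from RefSeq's GRCh38.p14 table. Mitochondrial peaks were left out of comparisons between chromosomes. Reads amplified by PCR are not independent molecules, so all intervals and limits (95%, and 3 counts for a count of 0) cover counting error only.

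Peaks named by position were the 10 highest-scoring, the 3 widest, the highest of the 5 fullest windows and of the 3 windows with the most strong peaks, the 3 highest from 55 to 57 Mb, those next to a score of 40, the 3 clusters with the most peaks and any overlapping input. Ties were broken by position. Positions of a few other peaks in the 55 to 57 Mb windows and near input were added after their values were seen. The members, thresholds and comparisons were chosen with earlier results of these data known. Counting was tested on simulated data. Scripts ran in Python 3.11.15 (scipy 1.17.1, pandas 2.3.3, numpy 2.4.6), and plots used matplotlib 3.10.9.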

Additional observations from a re-analysis of the deposited data

How the results depend on the processing

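Of 67 values under other settings, 49 fell inside the 95% interval given in the text (counts: within 1.5 times the main count), and none reversed a difference whose interval excluded 0. Some of the 49 could not change. No chromosome 19 peak overlapped an input peak, so removing such peaks altered only the comparison with other chromosomes. The difference in strong share between arms could not count as reversed, since its main interval included 0. The excess of strong peaks on chromosome 19 kept an interval above 0 in all 8 recomputations. It was 4.70 points with strong meaning 80 or more. The strong share itself was 34.3% for a score of 20 or more, 10.1% for 80 or more and 25% after peaks up to 10 kb apart were joined. That joining also gave 6.77 peaks per Mb, a median score of 13.5, a median width of 449 bp and at most 19 peaks in a window. Peaks at or above the list median gave 4.80 per Mb, a ratio of long to short arm of 0.717, a median width of 482 bp, at most 21 peaks in a window and 2 peaks from 55 to 57 Mb. Leaving out the peak-free stretch gave 10.1 peaks per Mb. Strong peaks alone gave an arm ratio of 0.692, and the difference in share between arms was 2.32 points at a score of 80 or more. The wide share of strong peaks, for which alternatives were added after seeing the data, was 26.8% with wide meaning 800 bp or more, and its difference from the other chromosomes was -36.7 points at a score of 80 or more. Fewer peaks, regions or a different threshold define these alternatives. No paired analysis was possible because each group holds 1 library, and for the same reason no replicate could be left out. The read depth is unknown and sets no stated limit on detection.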
